A study of Homo sapiens with 6 samples.

Results

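Trefoil peptides, gastrokine 1 and mucins make up the protective mucus of the stomach, and 10 of their genes were followed here: TFF1, TFF2, TFF3, GKN1, MUC5AC, MUC6, MUC5B, MUC2, MUC1 and MUC13. A gene was taken from the array rows that name it alone in the probe annotation, at its brightest row over all arrays. Of the 10 genes 9 were found, out of 18417 genes in all, and MUC5AC was not analysed here because no row names it. Each of the 9 had a single row, so brightness decided nothing. The genes were chosen with earlier results of these data known, so their calls are a description and not independent evidence.

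YCC3 cells, an established line from a human gastric cancer, had received either CTNNB1 siRNA (3 arrays) or a non-targeting control siRNA (3 arrays), and their RNA was taken after 48 hours. All 6 samples had thus been transfected with an siRNA, and cells without any were not part of the comparison. CTNNB1 encodes beta-catenin, the co-activator of Wnt signalling and a partner of cadherins, and the comparison asks what its silencing changes. The labels call the samples biological replicates without saying whether they were separate cultures, so p-values cover only how far these 6 samples vary, which may be technical variation.

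Surface mucous cells of the stomach are known for secreting TFF1 and GKN1 together with the gel-forming mucin MUC5AC, and the mucous cells of the glands for secreting TFF2 with MUC6. TFF3, MUC2 and MUC5B are better known from goblet cells and from glands outside the normal stomach. MUC1 and MUC13 do not form gels: they are anchored in the apical membrane and reach into the mucus layer.

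Values are log2 RMA signals, with a median per array of 5.88 to 5.95 over all rows. Because probes differ in brightness, levels of different genes are not ranked against each other, and a signal near or below the array median is not shown to be above background. CTNNB1 itself measured 11.07 ± 0.13 with CTNNB1 siRNA and 11.84 ± 0.05 with control siRNA (SD, n = 3 each), which is 41.4% less signal. All 7 epithelial markers tested, among them EPCAM, CDH1 and the keratins KRT8, KRT18 and KRT19, lay above the array median. The tight junction gene CLDN4 was the only one of the 7 called, with a log2 change of 0.61 ± 0.10 (SE), beside 4.72% of all genes called. At an unadjusted p under 0.05, 2 of the 7 were higher and 1 lower, KRT18 at -0.29 ± 0.10 (SE). Of 13 leukocyte and stromal markers 12 lay below the array median, limma called none, and none had an unadjusted p under 0.05, which 20.3% of all genes had. The summed log2 signal of these 13 was 60.9 to 62.8 with CTNNB1 siRNA and 59.4 to 61.5 with control siRNA. On such arrays fewer cells of a kind and less RNA per cell cannot be told apart.

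TFF1 and MUC13 rose with CTNNB1 siRNA, and the other 7 measured genes did not pass the threshold. Rose and fell are used only for an adjusted p under 0.05 in limma over all 18417 genes. TFF1 more than doubled its signal, and MUC13 rose by a smaller step from an already bright signal. No member fell. The 2 rises out of 9 stand beside 2.07% of all genes that rose, 2.65% that fell and 4.72% that changed in either direction, and nothing is read from that difference because the contrast was known when the genes were chosen. The median log2 change of the 9 genes was 0.14, against 0.0056 for all genes and -0.047 for all genes without the dimmest 50%. It was 0.11 for the 13 leukocyte and stromal markers, of which 12 lay below the array median. Of the 9 genes 5 lay below the mean array median, so no shift particular to them is read from their median.

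**Figure D1:**
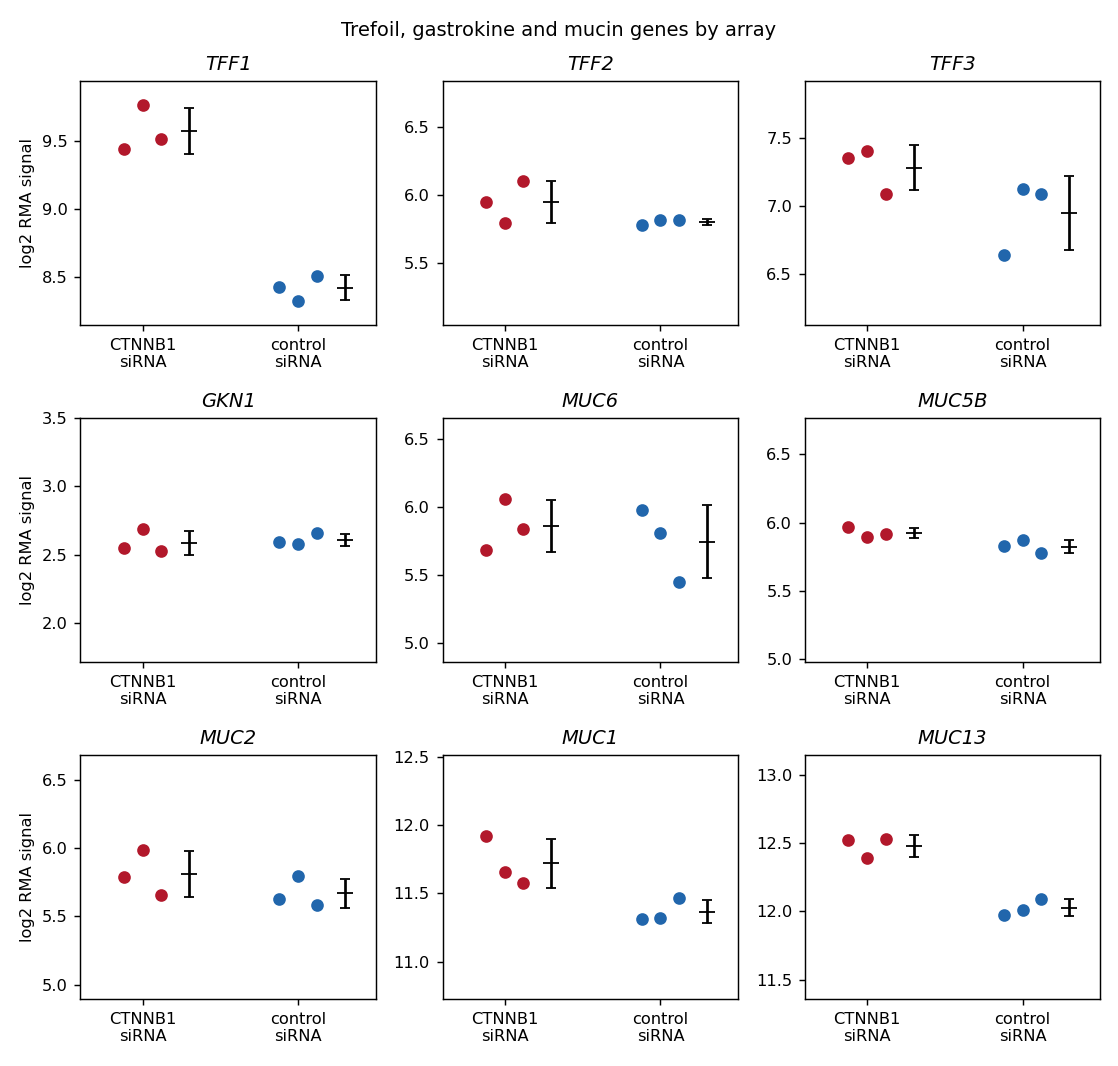
Log2 RMA signal of each measured gene, 1 dot per array, CTNNB1 siRNA in red on the left and control siRNA in blue on the right, with the mean and SD of the 3 arrays beside the dots. Every panel spans the same number of log2 units. TFF1 and MUC13 lie clearly apart between the groups, while TFF2, TFF3, GKN1, MUC6 and MUC2 overlap.

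Among the trefoil peptides, small secreted proteins that stabilise mucus and help repair of the epithelium, TFF1 stood out. TFF1 measured 9.44, 9.76 and 9.51 with CTNNB1 siRNA, against 8.43, 8.33 and 8.51 with control siRNA on the log2 scale. The lowest of the CTNNB1 siRNA arrays was higher than the highest control array by far more than the spread within either group. The log2 change was 1.15 ± 0.11 (SE, 95% confidence interval 0.90 to 1.40), or 2.22-fold, with an adjusted p of 0.000314 in limma. It ranked 69th among the changes of all 18417 genes from high to low. TFF1 was still called whichever single array was dropped, at log2 changes from 1.05 to 1.21.

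TFF3, the trefoil peptide of intestinal goblet cells, measured 7.35, 7.40 and 7.09 with CTNNB1 siRNA, against 6.64, 7.12 and 7.09 with control siRNA. The groups overlapped, and control replicate 1 was lower than the other 5 arrays. The log2 change of TFF3 was 0.33 ± 0.15 (SE, limma, adjusted p = 0.231), and it was 0.18 without control replicate 1. TFF2, the peptide of gland mucous cells, measured 5.95, 5.79 and 6.10 with CTNNB1 siRNA, against 5.78, 5.82 and 5.82 with control siRNA. These TFF2 signals lay close to the array medians and overlapped. The log2 change of TFF2 was 0.14 ± 0.10 (SE, limma, adjusted p = 0.493). The 95% confidence intervals reached up to 0.38 for TFF2 and 0.66 for TFF3, and that of TFF1 began at 0.90. Whether the changes of these genes differ was not tested.

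The 3 trefoil genes are neighbours on chromosome 21, in the order TFF3, TFF2, TFF1. The genes on either side were looked up after the members' values had been seen. The next gene beyond TFF1 is TMPRSS3, a membrane serine protease gene, and it measured 9.13 ± 0.01 with CTNNB1 siRNA and 9.06 ± 0.08 with control siRNA (SD, n = 3 each). Its signal was bright, so its log2 change of 0.06 ± 0.09 (SE) was measured well above the array median. On the other side of TFF3, the cholesterol transporter gene ABCG1 differed by 0.28 ± 0.13 log2 units (SE), at an adjusted p of 0.253 in limma. None of the 6 flanking genes of the trefoil cluster passed the threshold, and 1 of the 3 cluster genes did, beside 4.72% of all genes. The flanking genes UMODL1, ABCG1 and UBASH3A lay below the array medians in both groups and are not shown to be above background.

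**Figure D2:**
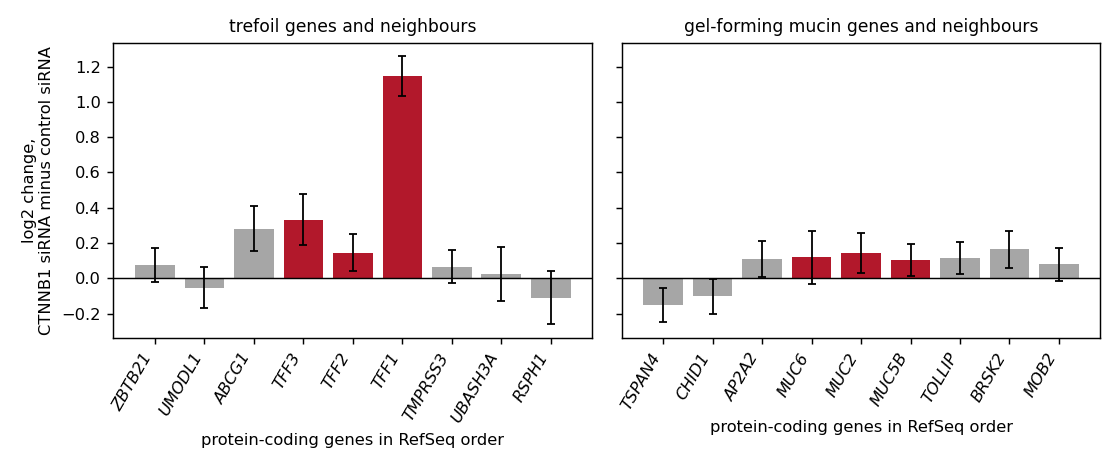
Log2 change (CTNNB1 siRNA minus control siRNA, bars start at 0) with its SE for the trefoil genes and for the gel-forming mucin genes, in red, and for the 3 protein-coding genes on either side, in grey, in RefSeq order. TFF1 stands at 1.15, and the other bars lie between -0.15 and 0.33. Genes without a named row, MUC5AC among them, are left out.

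GKN1, which encodes a secreted protein of gastric surface cells, was dim in every array. It measured 2.55, 2.69 and 2.52 with CTNNB1 siRNA, against 2.59, 2.58 and 2.66 with control siRNA. The groups overlapped, far below the array medians, and the log2 change was -0.02 ± 0.10 (SE, limma, adjusted p = 0.925). GKN2, its partner in surface cells, was likewise dim, at 2.46 ± 0.25 with CTNNB1 siRNA and 2.58 ± 0.29 with control siRNA (SD, n = 3 each). Of the measured markers of surface mucous cells, then, TFF1 lay above the array medians and the gastrokines were not shown to be above background. MUC5AC, a further such marker, had no row.

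The gel-forming mucins are very large secreted glycoproteins that make up the bulk of mucus. MUC6, MUC2, MUC5AC and MUC5B lie close together on chromosome 11, with LOC124902605, which had no row, between MUC6 and MUC2. MUC5B measured 5.97, 5.89 and 5.92 with CTNNB1 siRNA, against 5.83, 5.87 and 5.77 with control siRNA. The arrays of MUC5B did not overlap, but the gap was small: the log2 change was 0.10 ± 0.09 (SE, limma, adjusted p = 0.588), with a 95% confidence interval of -0.10 to 0.30. MUC2, the mucin of intestinal goblet cells, ranged from 5.66 to 5.99 with CTNNB1 siRNA and from 5.59 to 5.79 with control siRNA, and its log2 change was 0.14 ± 0.11 (SE). MUC6, the mucin of gastric glands, ranged from 5.68 to 6.06 with CTNNB1 siRNA and from 5.45 to 5.98 with control siRNA. Its log2 change was 0.12 ± 0.15 (SE), and it was -0.03 without control replicate 3. The adjusted p of MUC2 and MUC6 in limma was 0.539 and 0.712. All 3 genes lay near the array medians and are not shown to be above background.

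The membrane mucins MUC13 and MUC1 were bright in every array. MUC13 measured 12.52, 12.39 and 12.53 with CTNNB1 siRNA, against 11.97, 12.01 and 12.10 with control siRNA. The groups did not overlap, and the gap between them was wider than the range of either. The log2 change was 0.45 ± 0.10 (SE, 95% confidence interval 0.24 to 0.67), or 1.37-fold, with an adjusted p of 0.0258 in limma. The call of MUC13 was kept without CTNNB1 siRNA replicate 2 (adjusted p = 0.0446) and was lost without any other array. Its adjusted p was 0.0983 without CTNNB1 siRNA replicate 1, 0.0595 without CTNNB1 siRNA replicate 3, and 0.128, 0.0715 and 0.0587 without control replicates 1, 2 and 3, while the log2 change stayed between 0.43 and 0.50.

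MUC1, a cell surface mucin whose cytoplasmic tail takes part in signalling, measured 11.92, 11.65 and 11.58 with CTNNB1 siRNA, against 11.31, 11.32 and 11.47 with control siRNA. The groups of MUC1 did not overlap, with CTNNB1 siRNA replicate 1 the highest. Its log2 change was 0.35 ± 0.11 (SE), and its adjusted p of 0.112 in limma did not pass. MUC1 passed with a trended and robust variance (adjusted p = 0.0264) and when the dimmest 50% of genes were removed (0.0295). TFF1, MUC5B, MUC13 and MUC1 were thus the 4 of 9 genes with every CTNNB1 siRNA array above every control array, beside 10.8% of all genes.

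**Figure D3:**
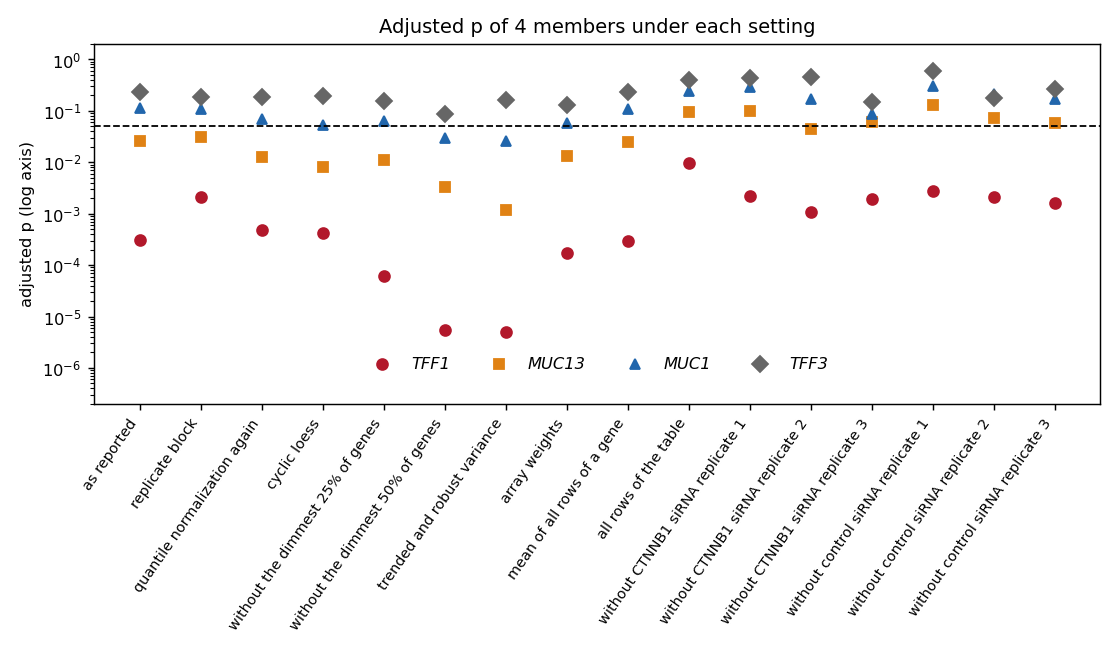
Adjusted p on a log axis for TFF1, MUC13, MUC1 and TFF3 as reported and under each of 15 other settings, with the threshold of 0.05 as a dashed line. TFF1 lies below the line in all 16 columns, MUC13 lies above it in 6, MUC1 lies below it in 2, and TFF3 stays above it.

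Promoter sequence from RefSeq was at hand for 4 of the 10 genes. The 250 bases before the start site are shown for MUC13, which rose, for MUC1, whose change did not pass, and for GKN1, which was dim in both groups. The search took both strands and 4 motifs: CTTTGA, the core bound by the TCF/LEF partners of beta-catenin, TTTCNNTTT of interferon response elements, TTCNNNGAA of STAT sites, and TATAAA. Capitals mark the matches, and none overlaps another: CTTTGA in MUC13 and GKN1, TTTCNNTTT in MUC13, read on the opposite strand, and TATAAA in MUC1. The sequences run 5′ to 3′ on the gene's strand, in build GRCh38.p14: MUC13 at chr3:124934752-124935001 (minus strand), MUC1 at chr1:155192916-155193165 (minus strand) and GKN1 at chr2:68974386-68974635 (plus strand).
MUC13: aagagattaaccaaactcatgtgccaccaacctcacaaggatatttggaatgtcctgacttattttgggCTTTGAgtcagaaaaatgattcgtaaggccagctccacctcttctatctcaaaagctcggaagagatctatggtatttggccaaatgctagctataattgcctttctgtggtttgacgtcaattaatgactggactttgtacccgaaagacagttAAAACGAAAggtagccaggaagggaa
MUC1: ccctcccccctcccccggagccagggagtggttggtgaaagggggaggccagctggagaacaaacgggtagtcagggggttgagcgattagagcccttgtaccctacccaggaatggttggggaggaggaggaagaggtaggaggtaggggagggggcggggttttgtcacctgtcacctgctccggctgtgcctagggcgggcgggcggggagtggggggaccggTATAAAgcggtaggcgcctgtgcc
GKN1: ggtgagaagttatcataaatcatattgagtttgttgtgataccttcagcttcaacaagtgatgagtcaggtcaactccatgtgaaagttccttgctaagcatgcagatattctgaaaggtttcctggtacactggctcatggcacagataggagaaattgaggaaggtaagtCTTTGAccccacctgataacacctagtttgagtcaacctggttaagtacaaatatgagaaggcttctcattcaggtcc

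CTTTGA starts at base -181 in MUC13 and at base -78 in GKN1, counted back from the start site, and TATAAA at base -24 in MUC1. RefSeq has another MUC1 start site a few bases away, whose window holds the same TATAAA at base -30. The TTTCNNTTT match of MUC13 starts at base -26. Of all 35116 promoters of this length 11.2% hold CTTTGA, 10.7% TATAAA, 9.2% TTTCNNTTT and 6.57% TTCNNNGAA on either strand. A stricter interferon motif, TTTCNNTTT followed by a further C, is in 3.02% and in no window of MUC13, MUC1, GKN1 or MUC2. The MUC2 window held none of the motifs. The same CTTTGA letters stood before MUC13, which rose, and before GKN1, whose signal was not shown to be above background. A change of GKN1 could not be seen at such a signal, so the pair says nothing about the motif. A match is only a description of the letters.

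The wider mucin family was read from a list of 15 measured genes beyond the members, of which 3 rose, none fell and 12 did not pass. Of all genes 2.07% rose and 2.65% fell. The list's median log2 change was 0.10, against 0.0056 for all genes and 0.11 for the leukocyte and stromal markers. MUC17, a membrane mucin of the intestinal brush border, measured 6.27, 6.43 and 5.84 with CTNNB1 siRNA, against 4.63, 4.57 and 4.55 with control siRNA. The groups of MUC17 lay more than 1 log2 unit apart, and its control signal was below the array median, not shown to be above background, so no fold is given. The difference in log2 signal was 1.60 ± 0.14 (SE, limma, adjusted p = 0.000147). MUC3A, a further membrane mucin, measured 6.52 ± 0.14 with CTNNB1 siRNA and 5.85 ± 0.09 with control siRNA (SD, n = 3 each). The difference in log2 signal of MUC3A was 0.68 ± 0.11 (SE, adjusted p = 0.00739), against a control signal also not shown to be above background. MUC3A has a near-identical copy, so its signal may hold both. MUC20, which also has close copies, measured 10.39 ± 0.08 with CTNNB1 siRNA and 9.87 ± 0.06 with control siRNA (SD, n = 3 each). This 1.43-fold rise had an adjusted p of 0.0149 in limma. The call of MUC20 was lost without CTNNB1 siRNA replicate 1, control replicate 1 or control replicate 3, with an adjusted p of up to 0.0705.

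Sorted by type after their values had been seen, 4 of 10 measured membrane mucins rose (MUC13, MUC17, MUC3A and MUC20), beside 2.07% of all genes. An unadjusted p under 0.05 was found for 5 of the 10, beside 20.3% of all genes. Of 4 measured gel-forming mucins, MUC19 among them, none was called by limma and none had an unadjusted p under 0.05. The median log2 change was 0.27 in the membrane mucins and 0.11 in the gel-forming ones, without MUC5AC, which had no row. It was also 0.11 in the leukocyte and stromal markers, most of them dim. All gel-forming signals lay at or below 6.06, near or under the array medians, whereas membrane mucins reached 12.53. Not all membrane mucins were bright. Control signals lay below the array medians for MUC17 (4.58) and MUC3A (5.85), which rose, and for MUC4, MUC12, MUC15 and MUC16, which did not pass. The difference between the types was not tested, and bright genes of the 2 types cannot be compared because no gel-forming mucin was bright. MUC4 and MUC16, membrane mucins with dim signals, had log2 changes of 0.01 ± 0.09 and 0.10 ± 0.12 (SE).

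**Figure D4:**
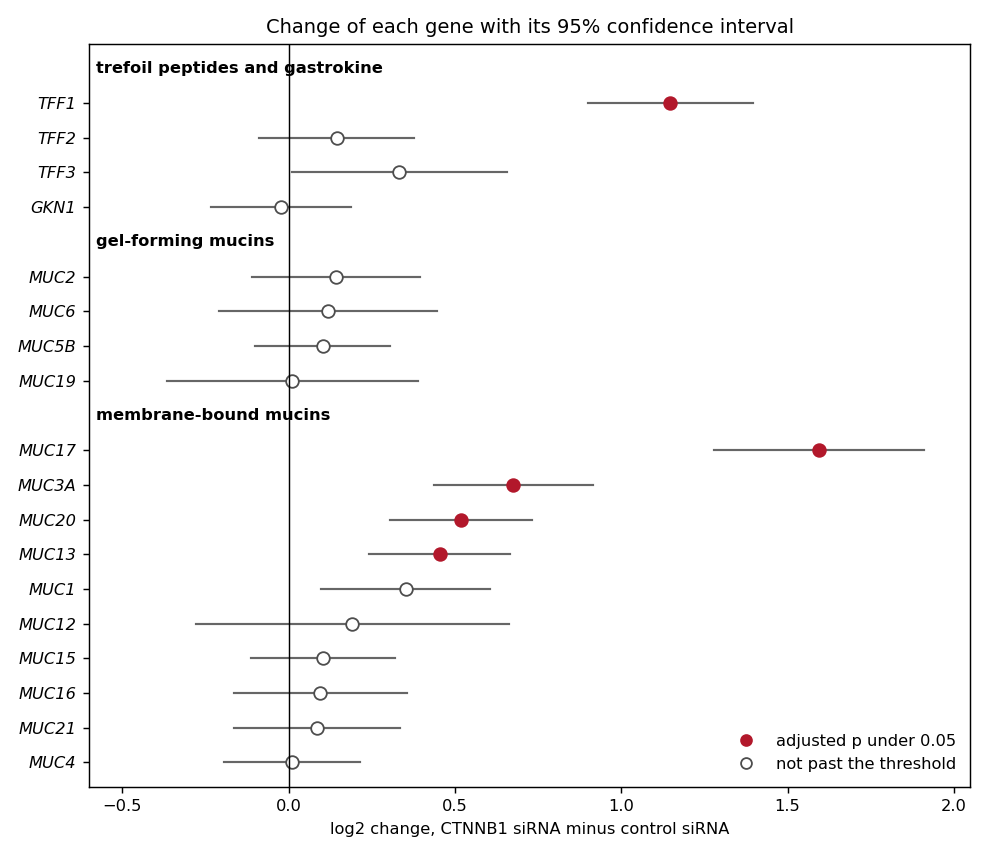
Log2 change of each trefoil, gastrokine and mucin gene (CTNNB1 siRNA minus control siRNA), with its 95% confidence interval, grouped by type. Filled red dots passed an adjusted p of 0.05, open dots did not. The passing genes are TFF1 at 1.15 and the membrane mucins MUC17 at 1.60, MUC3A at 0.68, MUC20 at 0.52 and MUC13 at 0.45, where the control signals of MUC17 and MUC3A are not shown to be above background.

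Mucins are finished in the Golgi by enzymes that build their sugar chains. Of 40 measured O-glycosylation genes 2 rose and none fell, beside 4.72% of all genes called in either direction and 2.07% that rose. Nothing is read from this count. GCNT3, which makes branched core structures on mucins, measured 9.34, 9.44 and 9.28 with CTNNB1 siRNA, against 8.35, 8.54 and 8.56 with control siRNA. The groups of GCNT3 lay well apart, with a 1.83-fold rise (limma, adjusted p = 0.00126). B4GALT4, a galactosyltransferase gene, measured 9.60 ± 0.16 with CTNNB1 siRNA and 8.72 ± 0.09 with control siRNA (SD, n = 3 each). The rise of B4GALT4 was 1.84-fold, at an adjusted p of 0.00198 in limma. Both calls held with any 1 array left out. The list's median log2 change was 0.12, and 31 of 40 changes were positive, beside 51.2% of all genes. Among the leukocyte and stromal markers the median was 0.11 and 12 of 13 changes were positive, so no general rise of the O-glycosylation genes is read from this.

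In the list of mucin folding and secretion genes 1 of 22 changed, beside 4.72% of all genes, and nothing is read from this count. At an unadjusted p under 0.05, 4 were higher and 1 lower, beside 20.3% of all genes in either direction. CFTR, the chloride and bicarbonate channel that hydrates mucus, fell to 5.46 ± 0.09 with CTNNB1 siRNA, against 6.17 ± 0.22 with control siRNA (SD, n = 3 each). The log2 change of CFTR was -0.72 ± 0.12 (SE, limma, adjusted p = 0.0110) and its call was lost without CTNNB1 siRNA replicate 1 or control replicate 1 (adjusted p up to 0.0656). The CTNNB1 siRNA signal of CFTR lay below the array median and is not shown to be above background. CREB3L1, a secretory pathway transcription factor, had a log2 change of 0.49 ± 0.12 (SE) with the groups apart and did not pass (adjusted p = 0.0520). AGR2, the chaperone that folds mucins, was bright at 11.05 ± 0.03 with CTNNB1 siRNA and 10.89 ± 0.07 with control siRNA (SD, n = 3 each), and its log2 change of 0.16 ± 0.09 (SE) did not pass. AGR2 was named after its values were seen. None of 8 partners and receptors of trefoil peptides was called by limma, and 2 had an unadjusted p under 0.05, again beside 20.3% of all genes. CXCR4, described as a receptor for TFF2, measured 0.29 ± 0.09 (SE) in log2 change with an adjusted p of 0.110.

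Among 22 gastric secretory and surface genes 2 rose and none fell, beside 2.07% of all genes that rose and 2.65% that fell. The list's median log2 change was 0.07, against 0.0056 for all genes and 0.11 for the leukocyte and stromal markers. At an unadjusted p under 0.05, 5 of the 22 were higher and 5 lower, beside 20.3% of all genes in either direction. CBLIF, the intrinsic factor gene, had the smallest p of those lower, with a difference in log2 signal of -0.40 ± 0.10 (SE, adjusted p = 0.0512) at signals below the array median. PSCA, a surface protein of the gastric epithelium, measured 6.78 ± 0.16 with CTNNB1 siRNA and 6.06 ± 0.07 with control siRNA (SD, n = 3 each). PSCA rose by 0.72 ± 0.11 log2 units (SE, limma, adjusted p = 0.00562). Its control signal lay near the array medians and is not shown to be above background. CLDN18, the claudin of gastric tight junctions, measured 11.74 ± 0.03 with CTNNB1 siRNA and 11.21 ± 0.23 with control siRNA (SD, n = 3 each). The log2 change of CLDN18 was 0.52 ± 0.12 (SE, limma, adjusted p = 0.0380), and the call was kept without control replicate 2 and lost without any other array (adjusted p up to 0.141). The gene of the chief cell product pepsinogen C, PGC, measured 9.01 ± 0.08 with CTNNB1 siRNA and 9.26 ± 0.12 with control siRNA (SD, n = 3 each). PGC was picked with its values in view, and its log2 change of -0.25 ± 0.10 (SE) did not pass.

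Of 31 measured transcription factors known to act on trefoil and mucin genes, 2 rose and none fell. Of all genes 2.07% rose and 2.65% fell, and nothing is read from the count. KLF4, a factor of epithelial differentiation, measured 8.57 ± 0.11 with CTNNB1 siRNA and 7.64 ± 0.10 with control siRNA (SD, n = 3 each), and its rise held with any 1 array left out. ELF3, an epithelial ETS factor, measured 10.14 ± 0.12 with CTNNB1 siRNA and 9.66 ± 0.17 with control siRNA (SD, n = 3 each). Its limma adjusted p was 0.0462. The call of ELF3 was lost without any 1 of the 6 arrays, with an adjusted p of up to 0.184. The gastric factors GATA6 and SOX2 and the trefoil regulator FOXA2, chosen after their values were seen, had log2 changes of 0.02 ± 0.11, -0.07 ± 0.10 and 0.08 ± 0.10 (SE). The intestinal factor CDX2 had a log2 change of 0.38 ± 0.11 (SE) with an adjusted p of 0.0750.

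**Figure D5:**
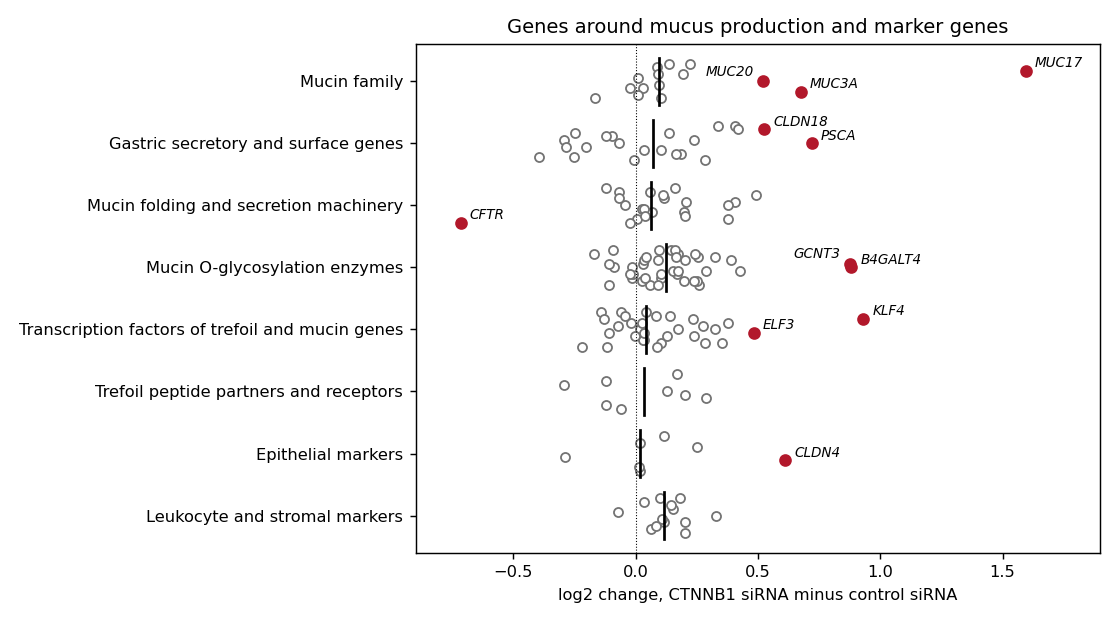
Log2 change (CTNNB1 siRNA minus control siRNA) of the genes of each list, 1 dot per gene, with the list's median as a black bar. Named red dots passed an adjusted p of 0.05, and open dots did not. Most genes lie within 0.5 of 0, and CFTR is the only named gene below it.

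An interferon response moved with the groups at the same time. All 12 interferon-stimulated genes listed rose, from 1.53 log2 units for OAS1 to 4.28 for RSAD2, beside 2.07% of all genes. This list was chosen with earlier results of these data known, so the count is a description. The summed log2 signal of the 12 genes was 112 to 114 with CTNNB1 siRNA and 75.2 to 77.3 with control siRNA. The control signal of RSAD2, 6.12, lay near the array medians and is not shown to be above background. The part of these 12 genes in the changes of TFF1, MUC13 and the other mucins was not tested. The genes whose values followed TFF1 most closely over the 6 arrays were MGAM, a starch-digesting enzyme gene of the intestine, NOCT, a circadian phosphatase gene, and BST2, the interferon-induced antiviral protein tetherin. The Pearson correlation with TFF1 was 0.997 for each, a description over 6 arrays in which the group difference itself sets most of the value. NOCT had a log2 change of 0.50 ± 0.09 (SE). The differences in log2 signal of MGAM, 1.10 ± 0.11, and BST2, 2.53 ± 0.19 (SE), stand against control signals below the array medians, not shown to be above background.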

How the data were processed

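RNA from 6 samples of YCC3 cells (3 with CTNNB1 siRNA, 3 with control siRNA) was read on Affymetrix Human Gene ST arrays, from 500 ng of total RNA each, per the labels' protocols. Values were deposited as log2 signals, which the authors obtained by RMA in Affymetrix Expression Console 1.1, going by the submitters' processing notes. RMA makes the distributions of the arrays alike, so a shift common to most genes would be hidden. For background calls, genome build and annotation version, nothing was given in the sources used here, and the number of arrays limits the precision. Of 33297 rows 19460 had exactly 1 gene symbol, 1754 several and 12083 none. The brightest row per gene gave 18417 genes. No further scaling or filter was applied.

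The two-sided test was limma's (version 3.58.1, R 4.3.3, lmFit then eBayes) for CTNNB1 siRNA minus control siRNA. P-values were adjusted by Benjamini-Hochberg across the 18417 genes, and 0.05 was the threshold. The fit was tested on simulated data. SE is the standard error from this fit. Members, lists and tests were chosen with earlier results of these data known. Named are CTNNB1, the members, list genes past the threshold (up to 6 a list, otherwise up to 3 with the smallest p in a list), and the 3 genes most correlated with TFF1. Any other named gene was chosen after its values were seen. List genes under other symbols or on rows with several symbols were not analysed here. Promoter windows are RefSeq's, and motifs were searched with Python 3.11.15. Other settings are given in the closing section.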

Additional observations from a re-analysis of the deposited data

How the results depend on the processing

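TFF1 passed the threshold in all 15 other settings, with log2 changes between 1.05 and 1.22 and adjusted p between 5.09e-06 and 0.0098. MUC13 passed in 9 of 15, with changes between 0.43 and 0.54. TFF2, TFF3, GKN1, MUC6, MUC5B and MUC2 passed in none of the settings that held them. Of the 9 members 2 passed as reported and 1 when all rows of the table were tested, where MUC13 had a limma adjusted p of 0.0972. With single arrays left out 1 to 2 passed. Without the dimmest 50% of genes, and likewise with a trended and robust variance, 3 passed, MUC1 being the further one. Over all genes 870 passed as reported, 1483 and 1861 without the dimmest 25% and 50% of genes, 1622 with a trended and robust variance and 252 when all rows were tested. With single arrays left out the number ran from 283 to 877, with 283 and 421 without CTNNB1 siRNA replicates 1 and 2 and 288 and 372 without control replicates 1 and 3. Rises were 43.9% of calls as reported, 56.3% under cyclic loess, 34.7% without the dimmest 50% of genes, 71.0% when all rows were tested, and between 41.5% (CTNNB1 siRNA replicate 3 left out) and 67.0% (control replicate 1 left out) with 5 arrays. Leaving out single arrays turned the sign of 2 changes near 0: GKN1's log2 change ran from -0.073 to 0.0090 and that of MUC6 from -0.028 to 0.23. Testing all rows also ended the calls of MUC3A, MUC20, CLDN18, CFTR, CLDN4 and ELF3, and the call of ELF3 was lost under the replicate block. With the replicate number as a block 1177 genes and 2 members passed. The numbers are not shown to pair the samples: deviations of same-numbered arrays correlated at -0.02, 0.33 and 0.22, and CTNNB1 siRNA replicate 1 correlated best with control replicate 3. The cause of these shifts was not tested. Signals near the array median, those of TFF2, MUC2, MUC5B and MUC6, limit what can be said of these genes.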
